A study of Mus musculus with 6 samples.

Results

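The 10 genes described here encode proteins that build or bind contractile actin filaments: the transgelins Tagln, Tagln2 and Tagln3, the smooth muscle actin Acta2, the calponins Cnn1, Cnn2 and Cnn3, and the tropomyosins Tpm1, Tpm2 and Tpm4. They were taken by name from the 15302 genes that could be named in the deposited table, with 1 row per gene, that of highest mean signal over all 6 arrays. Each of the 10 had a single named row, so all 10 were measured and none was lost to a filter. The row of each gene was chosen by its mean signal, and the list was drawn up with the differences between the groups already known, those of Tagln, Acta2 and Cnn2 among the largest rises in the table. Its counts are therefore a description of these genes, and nothing about actin-binding genes in general is read from them.

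The arrays compare 3 samples of neural progenitor cells that over-express Sox3 with 3 control samples. All 6 came from mouse embryonic stem cells with GFP in the Sox1 locus (Sox1-GFP). The over-expressing cells also carried a Sox3 transgene driven by the Nestin promoter (Nestin-Sox3), which is active in neural progenitors. Both kinds of cell differentiated in monolayer culture with N2 and B27 supplements, received 0.5 µM all-trans retinoic acid at day 0 and day 2, and were sorted by FACS at day 4, per the labels' protocols. The replicates are labelled as biological; whether each genotype was 1 stem cell clone or several is not given in the sources used here, so a difference between clones and one between genotypes cannot be told apart. The cells are called Sox3 cells and control cells below.

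Actin filaments become contractile when myosin pulls on them, and tropomyosin, calponin and transgelin lie along the filament and tune that contact. Acta2 and Tagln are classic genes of smooth muscle and of myofibroblasts, and are also switched on for a time in other embryonic cells. Many genes of this group are controlled by serum response factor (SRF), which binds a short DNA element called the CArG box and works with the coactivators MRTF and myocardin.

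Sox3 itself had log2 signals of 9.20, 9.23 and 9.22 in Sox3 cells, against 7.59, 7.52 and 7.25 in control cells, a difference of 1.76 ± 0.08 (SE; limma adjusted p = 0.000189). Whether the probed sequence lies in the transgene is not given in the sources used here. Median log2 signals lay between 6.85 and 6.87 on all 6 arrays, while the interquartile range was 2.89, 2.98 and 2.97 on the Sox3 arrays and 3.00, 3.02 and 3.17 on the control arrays, narrower on every Sox3 array than on any control array. On the first principal component the Sox3 arrays were between -14.1 and -7.42, and the control arrays were at 4.69, 5.61 and, for control replicate 3, 20.2. The rises of Tagln, Acta2, Cnn2 and Tpm1 below are also given without that array. Of 9 measured neural progenitor markers 1 was called, Sox2, a SoxB1 factor gene, which fell by 0.37, a call lost in 4 of the 6 fits with 1 array left out. That 1 call was 11.1% of the list, against 2.67% of all named genes called lower. The widest difference of that list was that of Fabp7, a radial glia gene, 0.77 ± 0.20, which did not pass (SE; limma adjusted p = 0.074). Of the 9, 5 had an unadjusted p under 0.05 in limma, as had 3649 of all 15302 named genes. The median difference of the 9 was 0.04, and up to 1 was called higher and 2 lower in another setting. The mean log2 signal of the 9 markers was 8.11 to 8.29 in Sox3 cells and 8.15 to 8.18 in control cells. That of 8 pluripotent cell markers was 10.6 to 10.7 in Sox3 cells and 10.6 to 10.8 in control cells, and its members lay on both sides. Of the 8, 0 were called by limma and 4 had an unadjusted p under 0.05. The widest were Tdgf1, a Nodal co-receptor gene, at -0.46 ± 0.10 and Utf1, a chromatin factor gene, at 0.38 ± 0.09 (SE; limma adjusted p = 0.052 and 0.064). In other settings up to 2 were called higher and up to 1 lower.

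Of the 10 genes, 4 rose in Sox3 cells, 0 fell and 6 did not pass the threshold (limma, adjusted p under 0.05 over all 21876 probe sets). Over all named genes, 1.27% were called higher and 2.67% lower. The 4 that rose were Tagln, 2.69-fold, Acta2, 2.25-fold, Cnn2, 2.24-fold, and Tpm1, 1.62-fold. The transgelins, calponins and tropomyosins, 3 genes each, thus each held 1 gene that rose. Acta2 was the only actin on the list, placed there with its rise known. The median log2 difference of the 10 genes was 0.24, and that over all genes was 0.00. Bright genes tended slightly downward in Sox3 cells: in the signal deciles that hold these 4 genes, the median difference of all genes was between -0.05 and -0.08. These are bulk measurements of sorted populations, so more cells with a transcript and more transcript per cell cannot be told apart.

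**Figure D1:**
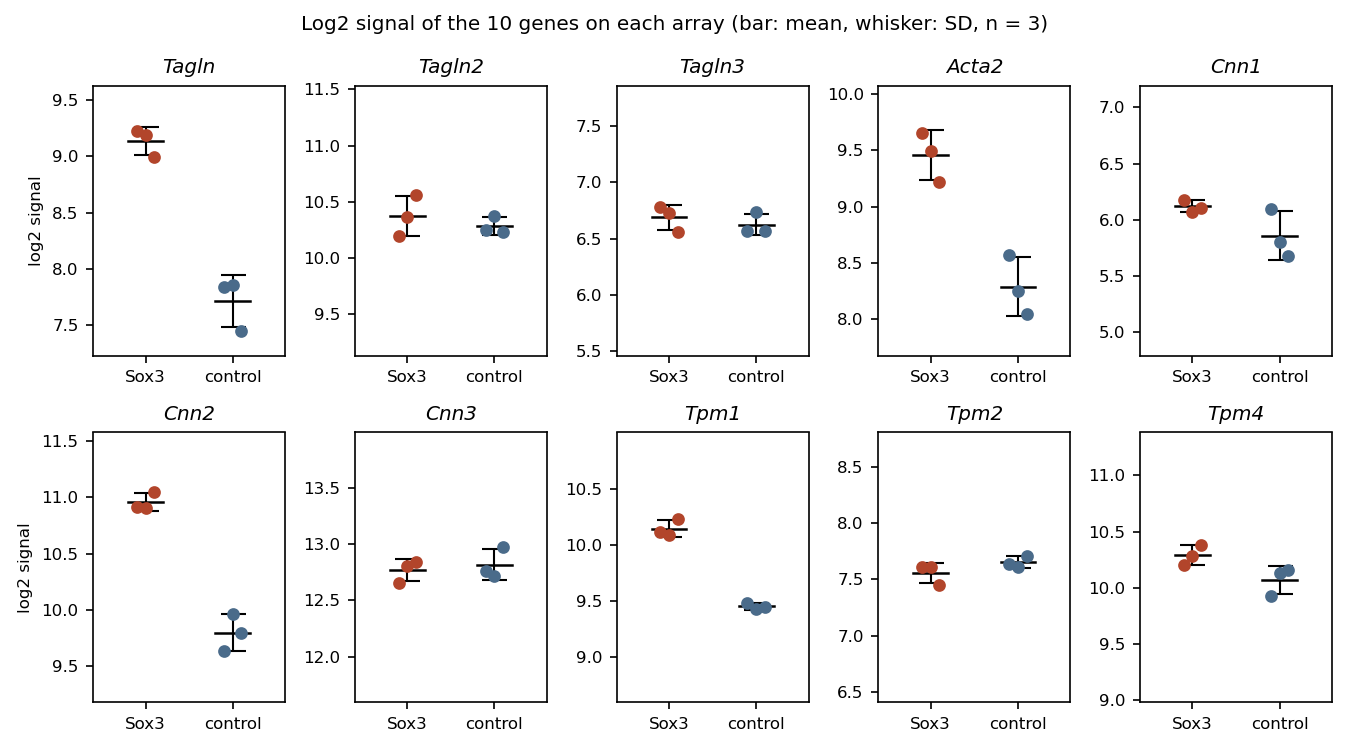
Log2 signal of each gene (vertical axis, the same span of log2 units in every panel) on the 3 Sox3 arrays (left, red) and the 3 control arrays (right, blue), with group mean and SD. In Tagln, Acta2, Cnn2 and Tpm1 the 3 Sox3 arrays lie well above the 3 control arrays, and in the other 6 genes the group means lie within 0.26 of each other.

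Among the transgelins, Tagln (transgelin, SM22-alpha), an actin-bundling protein abundant in smooth muscle, had log2 signals of 9.23, 9.19 and 8.99 in Sox3 cells, against 7.84, 7.86 and 7.45 in control cells. The groups did not overlap, and 1.14 log2 units separated the lowest Sox3 array from the highest control array. The difference was 1.43 ± 0.12 (SE; 95% interval 1.16 to 1.69; limma adjusted p = 0.00196), the fourth largest rise among all named genes. Without control replicate 3, its lowest array, the difference was 1.29.

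Tagln2, the transgelin of many non-muscle cells, had 10.2, 10.4 and 10.6 in Sox3 cells, against 10.3, 10.4 and 10.2 in control cells. Tagln3, known as a neuronal member of the family, had 6.78, 6.73 and 6.56 in Sox3 cells, against 6.57, 6.73 and 6.57 in control cells. In both genes the arrays of the groups overlapped. The Tagln2 difference was 0.09 ± 0.09 (SE; 95% interval -0.12 to 0.30; limma adjusted p = 0.58). The Tagln3 difference was 0.06 ± 0.07 (SE; 95% interval -0.11 to 0.23; limma adjusted p = 0.62). The intervals of both lie wholly below that of Tagln, although the difference between paralogues was not itself tested.

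Acta2, the alpha actin of smooth muscle and the common marker of myofibroblasts, had log2 signals of 9.66, 9.50 and 9.22 in Sox3 cells, against 8.57, 8.25 and 8.04 in control cells. It varied more among replicates than any other of the 10 genes, with an SD of 0.22 in Sox3 cells and 0.26 in control cells, yet the groups lay 0.65 apart. The difference was 1.17 ± 0.15 (SE; 95% interval 0.83 to 1.5; limma adjusted p = 0.00804), the sixth largest rise, and 1.05 without control replicate 3. In Acta2 as in Tagln, the array labelled replicate 3 was the lowest of its group in both groups. Actin coding sequences are nearly alike between genes, and the probe sequences were not used here, so the signals of different actins may not be fully told apart.

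The other actins are given beside Acta2, but without probe sequences their values cannot show which transcript each row read. Actb, the main cytoplasmic actin, averaged 13.8 ± 0.05 in Sox3 cells, against 13.7 ± 0.03 in control cells (SD of 3 arrays each; adjusted p = 0.68 by limma). Actg2, the smooth muscle gamma actin, averaged 5.52 ± 0.07 and Actc1, the cardiac actin, 6.84 ± 0.07 in Sox3 cells, against 5.58 ± 0.08 and 6.83 ± 0.02 in control cells (SD of 3 arrays each; adjusted p = 0.61 and 0.88 by limma). Acta1, the skeletal muscle actin, rose by 0.21 ± 0.04 (SE; limma adjusted p = 0.046), a call lost when any 1 of the 6 arrays was left out (adjusted p up to 0.15).

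Among the calponins, Cnn2, a calponin of many non-muscle and migrating cells, had log2 signals of 10.9, 10.9 and 11.1 in Sox3 cells, against 9.63, 9.96 and 9.80 in control cells. The groups did not overlap and lay 0.95 apart. The difference was 1.16 ± 0.09 (SE; 95% interval 0.97 to 1.36; limma adjusted p = 0.00152), the seventh largest rise, and it stayed at 1.16 without control replicate 3.

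Cnn1, the calponin of differentiated smooth muscle, had 6.18, 6.07 and 6.11 in Sox3 cells, against 6.10, 5.80 and 5.68 in control cells. Its mean signal lay at percentile 32.0 of all probe sets, and the deposited table holds no detection call that would tell such a signal from background. Control replicate 1 lay among the Sox3 arrays. The difference was 0.26 ± 0.10 (SE; 95% interval 0.03 to 0.49; limma adjusted p = 0.18). Without control replicate 1 it was 0.38 and passed (limma adjusted p = 0.042); over all alternatives the adjusted p ran up to 0.39. Cnn3, the acidic calponin of non-muscle cells including brain, was at percentile 99.3 of all probe sets, with 12.7, 12.8 and 12.8 in Sox3 cells, against 12.8, 12.7 and 13.0 in control cells. The Cnn3 groups overlapped, and the difference was -0.05 ± 0.08 (SE; 95% interval -0.24 to 0.14; limma adjusted p = 0.73), with a sign that turned under quantile normalisation. A second probe set, of a transcript that could not be named, held the same values as Cnn3.

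Among the tropomyosins, Tpm1 (alpha-tropomyosin), whose many isoforms serve muscle and non-muscle cells, had log2 signals of 10.1, 10.1 and 10.2 in Sox3 cells, against 9.49, 9.43 and 9.45 in control cells. The control arrays spanned only 0.06, and the groups lay 0.60 apart. The difference was 0.69 ± 0.05 (SE; 95% interval 0.57 to 0.82; limma adjusted p = 0.00196), the 23rd largest rise among named genes. It was 0.69 without control replicate 3 as well. Its interval does not reach those of Tagln and Cnn2, and it ends just below that of Acta2, at 0.82 against 0.83. These differences between genes were not tested. The SE of Tpm1 was the smallest of the 10. The table holds 1 named row for Tpm1, and any further Tpm1 transcript among the 4753 unnamed probe sets was not identified. The isoforms of Tpm1 were therefore not told apart.

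Tpm2 (beta-tropomyosin), best known from muscle, had 7.61, 7.61 and 7.45 in Sox3 cells, against 7.64, 7.61 and 7.71 in control cells. All Sox3 arrays were below all control arrays, but by a margin smaller than the spread within either group, and the difference of -0.10 ± 0.06 did not pass (SE; 95% interval -0.23 to 0.04; limma adjusted p = 0.36). Tpm4, a cytoskeletal tropomyosin, had 10.2, 10.3 and 10.4 in Sox3 cells, against 9.92, 10.1 and 10.2 in control cells. Here the Sox3 arrays were all higher, by 0.05 at the closest. The difference was 0.22 ± 0.08 (SE; 95% interval 0.05 to 0.40; limma adjusted p = 0.14), and it passed after quantile normalisation (0.30, adjusted p = 0.044) and after cyclic loess (0.31, adjusted p = 0.044). In all, 5 of the 10 genes were higher in Sox3 cells without overlap between the groups and 1 was lower without overlap; over all named genes this held for 13.1% and 18.3%.

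**Figure D2:**
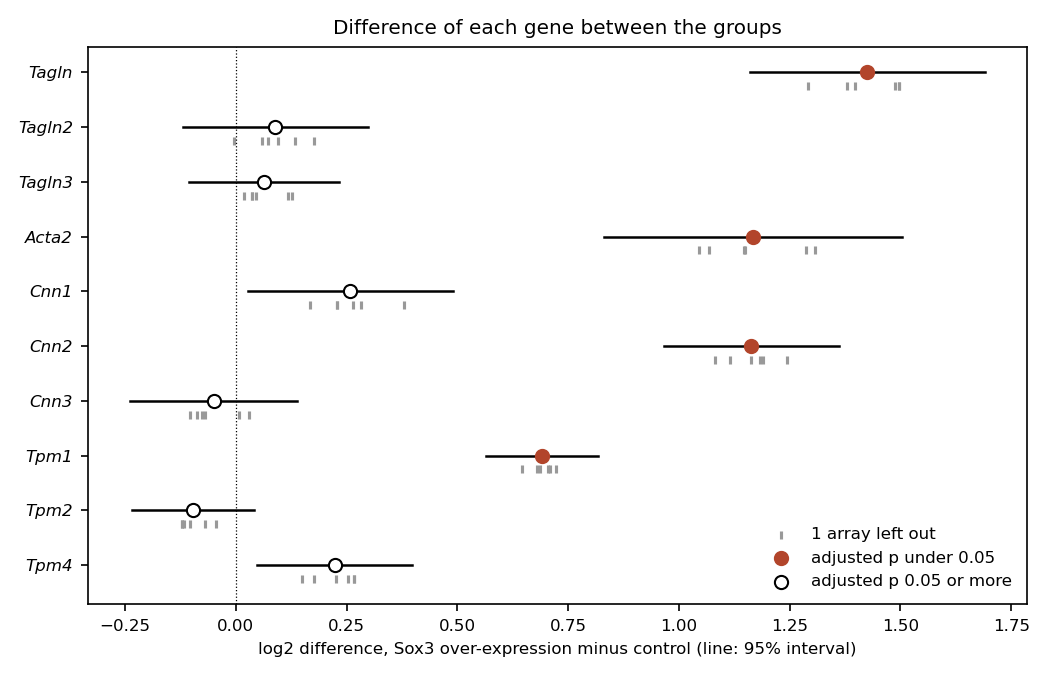
Log2 difference of each gene, Sox3 over-expression minus control (horizontal axis), with its 95% interval from limma, and in grey the difference with each of the 6 arrays left out in turn. Filled circles mark the genes with an adjusted p under 0.05: Tagln, Acta2, Cnn2 and Tpm1, whose differences stay between 0.65 and 1.5 whichever array is left out.

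The calls of Tagln, Acta2, Cnn2 and Tpm1 each held in all 14 other settings, the 6 with 1 array left out included. With 1 array left out, the highest adjusted p was 0.016 for Tagln, 0.041 for Acta2, 0.016 for Cnn2 and 0.016 for Tpm1. The intervals of Tagln, Acta2 and Cnn2 overlap, so these data do not order them by size of rise.

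**Figure D3:**
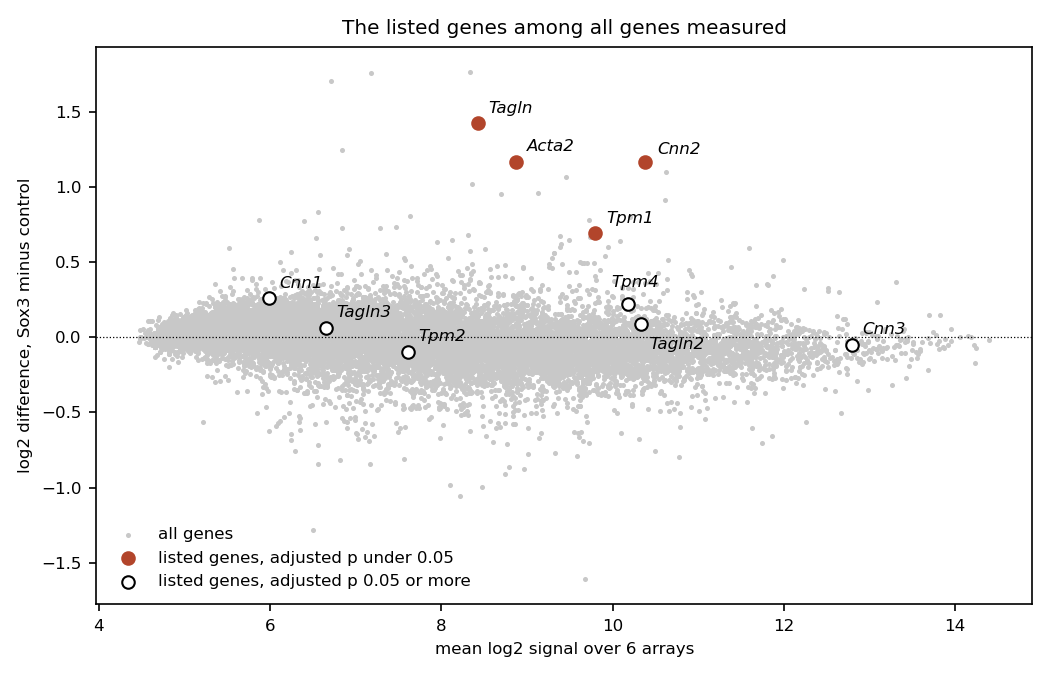
Log2 difference, Sox3 minus control (vertical axis), against the mean log2 signal over 6 arrays (horizontal axis) for all named genes in grey, with the 10 genes marked. Tagln, Acta2 and Cnn2 stand at the upper edge of the cloud with differences of 1.43, 1.17 and 1.16, Tpm1 lies below them at 0.69, and the other genes lie within the cloud.

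The promoter windows of Acta2 and Cnn2 are shown because both genes rose and both windows hold a CArG-type element, the DNA sequence that SRF is known to bind. Windows run from 250 bases before to 50 bases after the annotated start, 5′ to 3′ on the strand of the gene, from RefSeq (GRCm38.p6). CArG-type matches are in capitals. The Acta2 window is chr19:34255324-34255623 on the minus strand and that of Cnn2 is chr10:79988350-79988649 on the plus strand.
Acta2: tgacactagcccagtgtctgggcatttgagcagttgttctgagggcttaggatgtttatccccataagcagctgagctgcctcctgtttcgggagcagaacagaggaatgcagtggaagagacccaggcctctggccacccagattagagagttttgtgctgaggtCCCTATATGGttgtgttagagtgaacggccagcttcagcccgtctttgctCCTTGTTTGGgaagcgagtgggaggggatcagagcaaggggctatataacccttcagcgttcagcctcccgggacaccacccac
Cnn2: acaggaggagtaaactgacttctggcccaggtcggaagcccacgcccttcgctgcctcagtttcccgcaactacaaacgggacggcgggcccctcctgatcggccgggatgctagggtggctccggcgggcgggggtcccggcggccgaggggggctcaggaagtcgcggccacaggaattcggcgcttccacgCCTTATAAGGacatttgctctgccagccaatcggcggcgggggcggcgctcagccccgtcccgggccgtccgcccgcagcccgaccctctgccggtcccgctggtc

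A window was found for 9 of the 10 genes, all but Tagln. The strict CArG box, a run of 6 A or T bases between CC and GG, was searched on both strands and found in 1 of the 9 windows. This was CCTTATAAGG in Cnn2, 56 to 47 bases before the start. Of all 32851 promoter windows of this length, 1.63% hold it. A form with 1 G or C among the 6 middle bases, added after the sequences were seen, was also found in 1 window, that of Acta2, and in 8.5% of all windows. Acta2 held it at CCCTATATGG, 84 to 75 bases before the start, and at CCTTGTTTGG, 34 to 25 bases before it. Neither form was in any other window searched, that of Tpm1 included. Forms with a changed base in the outer CC or GG were not searched in any window. The wider form was set after the sequences were seen, and Tagln had no window. No contrast between the genes that rose and the others is therefore read from these matches.

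Other motifs were searched on both strands in the same way. The SOX-type core ACAAAG was in 0 of the 9 windows and in 18.7% of all windows, and ACAATG was in 1, that of Cnn1, and in 12.6% of all. The TEAD-type core GGAATG was in 3 windows, those of Tagln2, Acta2 and Tpm1, and in 14.7% of all. The E-box CANNTG was in 6 of 9 and in 72.3% of all, and TATAAA in 0 of 9 and in 13.6% of all. These are matches of letters, and none of the arrays measured binding.

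Of 33 other measured smooth muscle contractile genes, 2 rose and 0 fell, and 31 did not pass; the median log2 difference was 0.02. Both calls were rises, so 6.06% of the list was called higher, against 1.27% of all named genes, and 0 lower, against 2.67%. That share rests on these 2 calls alone. At an unadjusted p under 0.05 there were 8, a share near that of the 3649 of all 15302 named genes. Of the 8, Fhl1 and Myh10 lay lower in Sox3 cells, at -0.31 and -0.15, and the others higher. Other settings called between 0 and 5 of the list higher and up to 1 lower. Cald1 (caldesmon), which binds actin and tropomyosin, rose by 0.32 ± 0.06, and Zyx (zyxin), a focal adhesion protein, by 0.22 ± 0.05 (SE; limma adjusted p = 0.032 and 0.049). The Zyx call was lost when any 1 array was left out and that of Cald1 in all of these fits but the one without control replicate 3 (adjusted p up to 0.14 and 0.12). Myh11, the smooth muscle myosin heavy chain, averaged 5.20 ± 0.05 in Sox3 cells, against 5.18 ± 0.05 in control cells, and Mylk, myosin light chain kinase, 5.90 ± 0.01 in Sox3 cells, against 5.90 ± 0.02 in control cells (SD of 3 arrays each; adjusted p = 0.81 and 0.96 by limma). Of 11 further actin, tropomodulin and leiomodin genes, Acta1 rose and 10 did not pass, with a median of 0.01. That 1 call was 9.09% of the list, against 1.27% of all named genes called higher.

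Of 29 measured SRF and MRTF regulators, 0 rose and 0 fell in limma's test. An unadjusted p under 0.05 was found for 2, a lower share than the 3649 of all 15302 named genes. With 1.27% of all named genes called higher and 2.67% lower, a count of 0 in a list of this size is near the background. With array weights, 2 were called lower. Srf averaged 8.74 in Sox3 cells and 8.79 in control cells, Mrtfa 8.004 and 8.012, Mrtfb 7.08 and 7.02, and Myocd, which encodes myocardin, 5.24 and 5.20 (limma adjusted p = 0.63, 0.94, 0.73 and 0.61). The largest differences of the list were those of the ligand gene Tgfb2, -0.26 ± 0.08, and of the TEAD factor gene Tead2, -0.26 ± 0.08 (SE; limma adjusted p = 0.095 and 0.12). Transcript levels do not show whether these proteins were active.

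Of 13 immediate early and matricellular SRF targets, 3 rose and 0 fell, and 10 did not pass. The median log2 difference was 0.07. The 3 calls were 23.1% of the list called higher, against 1.27% of all named genes, and 0 were lower, against 2.67%. Ccn2 and Ccn1, matricellular protein genes that also respond to YAP and TEAD, rose by 0.49 ± 0.07 and 0.45 ± 0.05, and Nr4a1, an orphan nuclear receptor gene, by 0.36 ± 0.05 (SE; limma adjusted p = 0.012, 0.0067 and 0.015). Ccn1 kept its call with any 1 array left out. Ccn2 lost its call when either replicate 1 or 2 of the Sox3 cells was left out, with an adjusted p up to 0.060. Nr4a1 lost its own when either replicate 2 or 3 of the Sox3 cells was left out, with an adjusted p up to 0.072. At an unadjusted p under 0.05 in limma the list had 6 genes, against 3649 of all 15302 named genes. Those of the 6 that did not pass all lay lower in Sox3 cells. They were Egr1, a rapid SRF target, at -0.47 ± 0.19, Ier2 at -0.36 ± 0.10 and Ier5 at -0.11 ± 0.04 (SE; limma adjusted p = 0.18, 0.099 and 0.20). The groups did not overlap in Ier2 and Ier5, and 18.3% of all named genes were lower without overlap. Fos was at 0.23 ± 0.21 (SE; limma adjusted p = 0.54). Without control replicate 2, 1 gene of the list was called lower.

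**Figure D4:**
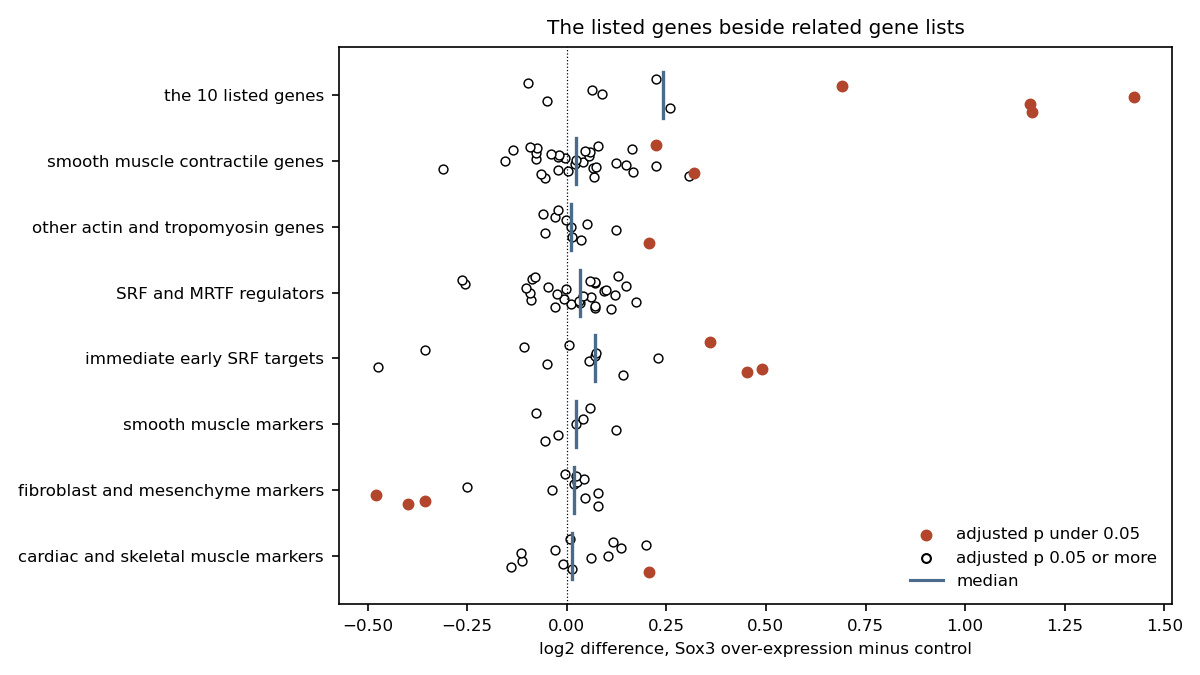
Log2 difference, Sox3 over-expression minus control (horizontal axis), of every measured gene of the 10 described here and of 7 related lists, 1 circle per gene, filled where the adjusted p is under 0.05, with the list median in blue. The medians of the 7 related lists lie between 0.01 and 0.07, and that of the 10 genes at 0.24. The 10 genes were listed with their differences known, so no contrast with the other lists is read from these medians.

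Markers of other cell types were read beside the rises, since Tagln and Acta2 also mark smooth muscle and mesenchyme. Of 7 smooth muscle markers (Myh11, Actg2, Smtn, Des, Lmod1, Myocd and Ppp1r14a) 0 were called in limma's test, 1 had an unadjusted p under 0.05, and 0 were called in the other settings run. Their mean log2 signal was 6.39 to 6.43 in Sox3 cells and 6.33 to 6.44 in control cells. Myh11 and Myocd lay at percentiles 8.82 and 9.52 of all probe sets. Of 13 fibroblast and mesenchyme markers 3 fell and 0 rose, while the median log2 difference of the list was 0.02. The 3 were 23.1% of the list, against 2.67% of all named genes called lower. Foxc2, a mesenchymal forkhead factor gene, fell by 0.48 ± 0.05, and the collagen genes Col1a2 and Col3a1 fell by 0.40 ± 0.05 and 0.35 ± 0.05 (SE; limma adjusted p = 0.0042, 0.0077 and 0.015). The Col3a1 call was lost with any 1 of the Sox3 arrays left out, or control replicate 2 (adjusted p up to 0.071). The mean of this list was 6.27 to 6.32 in Sox3 cells and 6.36 to 6.42 in control cells.

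Of 13 cardiac and skeletal muscle markers 1 rose, Acta1, which was 7.69% of the list, against 1.27% of all named genes called higher. The mean of the 13 markers was 6.15 to 6.18 in Sox3 cells and 6.09 to 6.17 in control cells. Of 8 endothelial markers 0 were called by limma, 1 had an unadjusted p under 0.05, and 1 was called in at least 1 other setting. The widest differences were 0.16 ± 0.07 for the receptor gene Tek and 0.16 ± 0.06 for the adhesion gene Esam (SE; limma adjusted p = 0.22 and 0.14). Their mean was 6.23 to 6.25 in Sox3 cells and 6.08 to 6.20 in control cells. Of 7 neural crest markers 1 rose, Foxd3, a crest and epiblast factor gene, by 0.36 ± 0.08 (SE; limma adjusted p = 0.045), a call lost in 5 of the 6 fits with 1 array left out. That 1 call was 14.3% of the list, against 1.27% of all named genes called higher. The mean of the 7 markers was 6.24 to 6.26 in Sox3 cells and 6.14 to 6.17 in control cells. Of 9 endoderm markers 4 fell (Cubn, Afp, Ttr and Foxa2) and 0 rose. This was 44.4% of the list called lower, against 2.67% of all named genes. In limma 7 of the 9 had an unadjusted p under 0.05. The median log2 difference was -0.29, with members from -0.999 to 0.348. The differences were -0.999 ± 0.139 for Cubn, -0.573 ± 0.108 for Foxa2, -0.561 ± 0.094 for Afp and -0.290 ± 0.052 for Ttr (SE). With 1 array left out, between 0 and 4 of the endoderm markers were called lower. Their mean was 7.43 to 7.65 in Sox3 cells and 7.54 to 7.88 in control cells. The part that a change in the mix of cells had in the rises of Tagln, Acta2, Cnn2 and Tpm1 was not tested.

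The genes whose 6 values, centred on their mean, were nearest to those of Tagln were Sox3, Fgfbp3, a secreted FGF-binding protein gene, and Neurog2, a proneural factor gene, at root mean square distances of 0.19, 0.21 and 0.23 log2 units. Acta2 was nearer still, at 0.17, and Cnn2 lay at 0.24 and Tpm1 at 0.41 from Tagln. Nearest to Acta2 outside the list were Lhfp, Agtr1a, an angiotensin receptor gene, and Fgfbp3, at 0.19, 0.20 and 0.20. Nearest to Cnn2 were Pmp22, a membrane protein gene, Pcdh8, a protocadherin gene, and Csn3, which encodes kappa-casein, at 0.08, 0.13 and 0.16. Over 6 arrays in 2 groups this distance mostly reads the size of the difference between the groups.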

How the data were processed

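The deposited table holds 1 log2 value per probe set and array. Per the submitters' processing notes, the authors used Affymetrix Power Tools and RMA, which corrects background, quantile-normalises and summarises probes. Tool versions, array type and probe design are not stated in the sources. The lowest deposited value was 4.41 and the highest 14.6, with no detection calls. Precision is limited by the number of arrays, 3 per group. Of 21940 probe sets, 64 array controls were left out and 21876 were tested. Their RefSeq accessions, without versions, were matched to a RefSeq gene table (GRCm38.p6, used for names only), giving 1 symbol for 17123 probe sets and none for 4753.

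Differences were tested with lmFit and eBayes of limma 3.58.1 (R 4.3.3), two-sided, without a replicate block or a filter, and p-values were adjusted by Benjamini-Hochberg over all tested probe sets. Differences are Sox3 over-expression minus control with the moderated SE. On 10 simulated sets of 18009 profiles with 200 changed, 91.0% of changes of 0.4, 99.4% of 0.6 and 99.8% of 1 log2 unit were recovered, with 5.66% false calls. The simulated noise was normal, independent between profiles and of the same spread on every array. The real arrays differ in spread and control replicate 3 stood apart, so these shares need not hold for them. The genes, gene lists and tests were chosen with earlier results of these data known. Named are the 10 genes, Sox3, up to 5 called members of each list by smallest p or else the 2 of largest difference, and the 3 nearest profiles to Tagln, Acta2 and Cnn2. Srf, Mrtfa, Mrtfb, Myocd, Myh11, Mylk, Egr1, Fos, Ier2, Ier5, Fabp7, the actins that were not called and the single markers that were not called are named outside that rule, after their values were seen. Other normalisations, filters on dim probe sets, variance models, array weights, thresholds, a replicate block and leaving out each array were tried.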

Additional observations from a re-analysis of the deposited data

How the results depend on the processing

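The count of 4 genes called higher was 4 or 5 in every alternative run, and 0 were called lower in any. Each of the 10 genes has 1 named row, so another choice among the named rows gives no other value. Tpm4 passed after quantile normalisation and cyclic loess, and Cnn1 without control replicate 1. Signs turned in genes that were not called: the log2 difference of Cnn3 was 0.0396 under quantile normalisation, 0.0261 under cyclic loess and 0.0416 with array weights. With 1 array left out it ran from -0.102 to 0.0292 (0.00673 without Sox3 replicate 1), and that of Tagln2 from -0.00435 to 0.176. The filter at the median signal drops Cnn1 and Tagln3.

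Over all probe sets, 255 were called higher and 536 lower. Array weights gave 817 and 1280, an adjusted p under 0.01 gave 67 and 83, and an adjusted p under 0.05 with at least a 1.5-fold change gave 43 and 73. With 1 array left out, 74 to 189 were called higher and 94 to 286 lower. Rises made up 32.2% of the calls, and 43.4% after quantile normalisation (382 higher, 498 lower) and 44.5% after cyclic loess (365 higher, 455 lower). The cause of these shifts was not tested, beyond fewer arrays or a stricter limit where these define the setting.

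Replicate numbers were not used as pairs: same-numbered arrays deviated from their group means with correlations of 0.29, -0.21 and 0.12. With the replicate block, 248 probe sets were called higher and 510 lower, and the same 4 of the 10 genes were called, with adjusted p of 0.00081 for Tagln, 0.0011 for Acta2, 0.0031 for Cnn2 and 0.0057 for Tpm1. The calls of Cald1, Zyx and Acta1 were lost under it.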
